A study of Mus musculus with 12 samples.

Results

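The first-fifth peaks described here lie in the first 20% of a gene span. They come from m6A immunoprecipitation (IP) sequencing of mouse liver and number 613 of the 6474 merged peaks that the deposited table assigns to a single gene (7460 distinct peaks in all). A peak was a member if the midpoint of its coordinates fell below a fraction of 0.2 of the listed gene span, counted from the 5′ end on the gene's strand. The 613 peaks belong to 534 genes, of which 465 had 1 such peak, 60 had 2, 8 had 3 and 1 gene, Dclre1a, had 4. The choice used positions only and no read count.

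The study compared livers of male C57BL/6 mice with cholestatic fibrosis after bile duct ligation (BDL) with livers of normal male C57BL/6 mice, all aged 12 weeks. Bile duct ligation blocks the outflow of bile and leads to scarring of the liver. The IP counts cover 3 BDL and 3 control libraries with 15254737 to 35691860 reads in peaks, and the matched input libraries were not analysed here. Each IP value therefore mixes how much of a transcript was present with how much of it was methylated, and for whole liver tissue fewer cells of a type and less RNA per cell cannot be told apart. The sources used here do not give the time after ligation, any sham surgery in the controls or any pooling of animals, so p-values measure the spread between these libraries.

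N6-methyladenosine (m6A) is a methyl mark that a nuclear enzyme complex with METTL3 and METTL14 as its core places on adenosines of mRNA, mostly within the sequence GGAC or a close relative of it. The mark is best known from long internal exons and from the region around the stop codon, and reader proteins of the YTH family link it to mRNA decay and translation. Antibodies against m6A also bind m6Am, a related mark on the first transcribed base of many capped mRNAs, so that IP peaks at the 5′ end of a gene can hold either mark.

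Whether a peak is a first-fifth peak depends on which transcript the span was taken from. The deposited table lists 193 genes with more than 1 start or end. On the span of the same symbol in the RefSeq gene table (GRCm38.p6), 556 of the 607 matched members kept a fraction under 0.2, 51 had 0.2 or more, and 6 had no match. Among the 51 is the main peak of Crp, a secreted pentraxin made by hepatocytes. It sat at 0.006 of a listed span of 134977 bases but at 0.42 of the RefSeq span. Manf (0.91 of the RefSeq span), Apoa2 (0.76), Cx3cr1 (0.92), Gucd1 (0.83), Arl4a (0.35) and 2 Arl4c peaks (0.33 and 0.43) are also among them. The share of reads in members and the counts of calls over all members are given with and without these 51 peaks, and the other results are given with them.

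The clearest sequence context came from members that lie on a transcription start. Of the 613 members, 486 had a gene symbol with a RefSeq start to compare. Of these, 97 peaks in 96 genes covered at least 25 of the first 50 transcribed bases of a RefSeq start of their gene. That was 15.8% of all 613 members, against 0.256% of the peaks further along (15 peaks). The membership rule places members near the start, so this difference was built in. The windows printed here hold the 30 bases before and the first 30 bases after such a start, credited to RefSeq (GRCm38.p6), with the first transcribed base and any GGAC in the transcribed part in capitals. The first 5 are shown because their peaks were lower in BDL, the next 5 because they are all the members with GGACT in the first 30 transcribed bases, and the last 2 for the respiratory chain described further on.
Mup10, chr4:60582126-60582185, minus strand: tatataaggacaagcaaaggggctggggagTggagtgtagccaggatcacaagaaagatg
Mup21, chr4:62150812-62150871, minus strand: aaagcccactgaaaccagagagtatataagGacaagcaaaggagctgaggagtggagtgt
Mup3, chr4:62087288-62087347, minus strand: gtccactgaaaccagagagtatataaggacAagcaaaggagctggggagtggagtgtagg
Slc25a20, chr9:108662106-108662165, plus strand: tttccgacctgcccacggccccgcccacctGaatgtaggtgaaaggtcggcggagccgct
Apoa2, chr1:171225024-171225083, plus strand: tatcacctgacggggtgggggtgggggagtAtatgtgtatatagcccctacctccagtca
Tat, chr8:109990406-109990465, plus strand: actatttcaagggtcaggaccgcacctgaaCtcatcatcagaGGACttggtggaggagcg
Emc7, chr2:112454995-112455054, plus strand: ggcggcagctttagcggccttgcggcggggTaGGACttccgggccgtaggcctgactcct
Adk, chr14:21052544-21052603, plus strand: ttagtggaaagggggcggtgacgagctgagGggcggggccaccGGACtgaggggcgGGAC
Crp, chr1:172698026-172698085, plus strand: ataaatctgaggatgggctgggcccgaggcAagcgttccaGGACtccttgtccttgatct
Tsc22d1, chr14:76415791-76415850, plus strand: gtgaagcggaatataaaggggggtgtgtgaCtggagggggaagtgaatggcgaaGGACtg
Atp5g1, chr11:96075602-96075661, minus strand: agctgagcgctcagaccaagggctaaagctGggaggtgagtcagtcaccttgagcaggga
Ndufa4, chr6:11907421-11907480, minus strand: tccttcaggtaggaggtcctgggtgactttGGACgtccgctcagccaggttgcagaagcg

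The Mup windows show how alike these genes are. All 3 hold the run tatataaggacaagcaaagg, 20 bases long, and the RefSeq starts fall at different places relative to it. Reads from such near-identical copies can be split between them by the counting, so values of single Mup genes, and likewise of the Ugt2b genes, are uncertain.

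Over the first 50 transcribed bases, GGAC occurred in 35 of the 97 covered starts (36.1%). It occurred in 20.8% of 3089 starts, 1 for each gene that had peaks but no first-fifth peak, and in 18.9% of all 32851 starts in the table. The longer GGACT, which contains GGAC, occurred in 13.4% of the covered starts, against 5.57% and 5.76% in the other sets. On the opposite strand, read as GTCC, the shares lay closer together at 19.6%, 20.1% and 17.4%. The first transcribed base was A in 24.7% of the covered starts, against 29.3% and 34.4%. G and C made up 61.4% of the first 50 bases in the covered starts, 66.1% in the genes without a first-fifth peak and 56.7% in all starts. A match to these letters is a description and does not mark a methylated site.

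Members crowded towards the start of the span. The first 20th of the span held 345 single-gene peaks, against 102, 95 and 71 in the 3 bins that complete the first 20%. The last 20th held 2301. The median member lay 549 bases from the listed start. Members were narrower than the other single-gene peaks, with a median width of 150 against 175 bases, and 28.7% of them were 75 bases wide or less, against 16.1%. Their genes were shorter, with a median span of 18224 against 28746 bases. The deposited table gives 89.2% of the members an mRNA annotation.

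**Figure D1:**
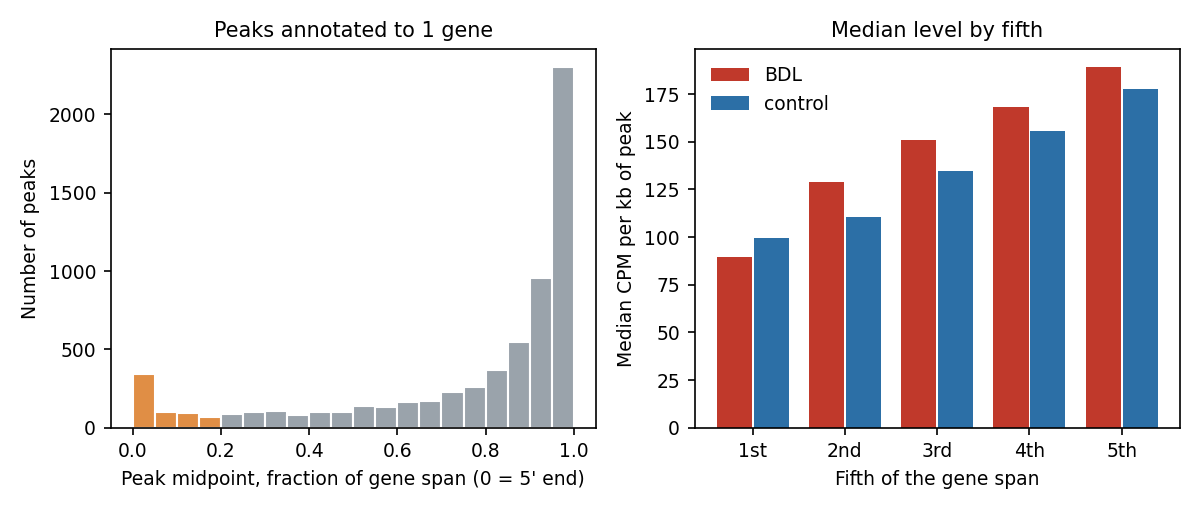
Left, number of peaks annotated to 1 gene by position of the peak midpoint along the gene span, in bins of 0.05, with members in orange. Right, median CPM per kb of peak width in BDL and control for each 20% of the span. Members had the lowest medians, 89.8 in BDL and 99.4 in control, and only there was the BDL median below the control median.

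Levels in members were low. Counts were scaled to CPM, meaning reads scaled to a fixed library total in peaks after TMM normalisation, and divided by peak width in kb to compare peaks with each other. The median member had 89.8 CPM per kb in BDL and 99.4 in control, against 177 CPM per kb in BDL for the peaks at a fraction of 0.2 or more. Of the 613 members, 24 had no read in any library. In each library more members had no reads (61, 67 and 70 in BDL and 98, 73 and 78 in control) than had 1 to 20 reads (7 to 11 in BDL and 14 to 18 in control). A zero may therefore not always come from counting, and the bounds given below hold only where it does.

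Crp stood far above every other member. Its main peak (chr1, 450 bases wide) held 411731, 769035 and 543268 reads in BDL libraries, against 695283, 816535 and 875077 in control libraries. Per kb of peak it had 40975 CPM in BDL and 110473 CPM in control. The next member by control level was Slc27a2, which encodes a very long chain fatty acid transporter and acyl-CoA synthetase of the liver, with 3192 CPM per kb in BDL and 10007 in control. In control the order went on with Gucd1, Ugt2b1, Mup3, G6pc, Apoa2, Manf, Ttr and Nfe2l1, the last at 2707 CPM per kb in BDL and 3819 in control. In BDL the 5 highest members per kb were Crp, Ankrd50 (6521 in BDL and 3370 in control), Gucd1 (6133 and 9688), G6pc (4247 and 5404) and Mpeg1 (4171 and 1792). G6pc, the last enzyme of glucose release, had 319 ± 99.7 CPM in BDL and a wider spread in control, at 405 ± 289 CPM (SD, n = 3 each).

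Crp also set the share of reads that fell in first-fifth peaks. Members held 6.15, 6.03 and 6.02% of the reads in single-gene peaks in BDL libraries, against 9.91, 9.22 and 8.91% in control libraries, and the groups did not overlap (6.07 ± 0.068% in BDL and 9.34 ± 0.512% in control, SD, n = 3 each). The main Crp peak alone made up 37.9 to 41.0% of the member reads in BDL and 56.2 to 59.7% in control. Without it the share was 3.78 ± 0.129% in BDL and 4.20 ± 0.382% in control, and the ranges overlapped (3.65 to 3.91% in BDL and 3.79 to 4.55% in control). Over members that were also in the first 20% of the RefSeq span, which leaves Crp's main peak out, it was 3.12 ± 0.111% in BDL and 3.25 ± 0.306% in control. The lower share in BDL thus rested on 1 peak, whose place in the first 20% depends on the listed span.

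**Figure D2:**
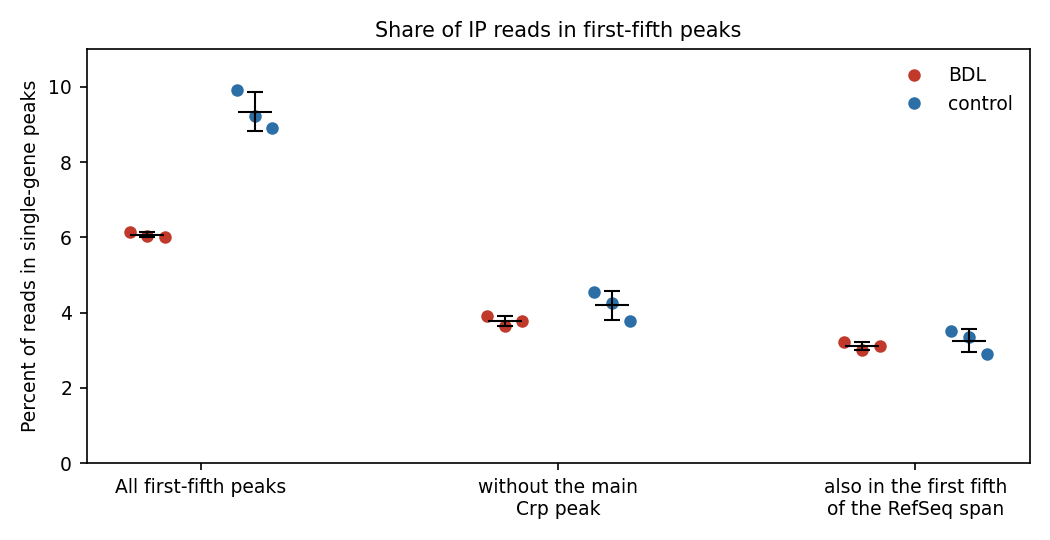
Percent of reads in single-gene peaks that fell in first-fifth peaks, 1 point per library, with the mean and SD of 3 libraries in black. The BDL and control points are apart for all members (6.02 to 6.15% and 8.91 to 9.91%) and overlap once the main Crp peak is left out.

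The comparison of BDL with control asks which of these peaks gained or lost IP reads in the cholestatic liver. It was fitted with edgeR's quasi-likelihood test on all distinct peaks, and an adjusted p (Benjamini-Hochberg) under 0.05 counted as a call. Of the 613 members, 564 had enough reads to be tested, 22 were higher in BDL and 24 were lower. That is 8.16% of the tested members, near the 9.16% called among all 7083 tested peaks (4.62% higher and 4.55% lower). BDL and control libraries did not overlap in 202 of the 564 members (35.8%), against 37.4% of all tested peaks. The median log2 change of members was -0.15, against 0.05 for all peaks and 0.08 for the peaks at 0.2 or more. Limited to the 509 tested members that were also in the first 20% of the RefSeq span, 18 were higher and 20 lower (7.47%), with the same median of -0.15. With library totals alone the median was 0.18 for members and 0.38 for all peaks, so that its sign turned while the difference from all peaks was -0.20 under both scalings. The median of members was -0.24 without BDL replicate 1, -0.10 without BDL replicate 2 and -0.09 without control replicate 2.

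These calls depended on single libraries. Of the 46 members called, 11 stayed past the threshold when any 1 library was left out: Thbs1, Foxj1 and 1 Arl4c peak were higher, and Apoa2, Crp, Manf, Mup3, Mup21, Slc27a2, Ugt2b1 and 1 Ugt2b36 peak were lower. Of these 11, Apoa2, Crp, Manf and the Arl4c peak lie at 0.2 or more of the RefSeq span. Without BDL replicate 2 only 13 of the 46 stayed past it, without BDL replicate 3 it was 15, without control replicate 2 it was 20, and without BDL replicate 1 it was 21. Without control replicate 1 or 3 it was 28 or 31. The loss was not particular to members, as calls over all peaks fell from 649 as well. They numbered 155 without BDL replicate 2, 170 without BDL replicate 3 and 362 without control replicate 2. Without BDL replicate 1 they numbered 338, and without control replicate 1 or 3 it was 487 or 611. With library totals alone in place of TMM, the split was 30 higher and 17 lower. Over all 7083 tested peaks that scaling gave 608 higher and 173 lower, so the lean to higher was not particular to members.

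IP reads of several cell type marker lists differed between the groups. Whether the makeup of the tissue differed, and its part in the changes of single members, was not tested. Summed over the markers' own peaks anywhere along the gene, 7 of 12 hepatocyte markers had 8889 to 12325 CPM in BDL and 15626 to 19142 CPM in control. Among those 7, Alb, Apoa1, Apoa2, Fgb and Ttr had a first-fifth peak. For 8 of 16 cholangiocyte markers it was 1983 to 3159 CPM in BDL and 471 to 596 CPM in control, and for 6 of 16 macrophage and monocyte markers 4763 to 5826 CPM in BDL and 1496 to 2538 CPM in control. For 2 of 12 stellate cell and fibroblast markers it was 320 to 489 CPM in BDL and 113 to 210 CPM in control, while 5 of 12 endothelial markers overlapped at 429 to 643 CPM in BDL and 405 to 558 CPM in control. For 3 of 8 B and plasma cell markers it was 415 to 492 CPM in BDL and 727 to 1227 CPM in control, and for 2 of 10 T and NK cell markers 15.8 to 27.3 CPM in BDL and 8.0 to 14.8 CPM in control. The 1 of 8 neutrophil markers with a peak had 9.75 to 13.5 CPM in BDL and 0 to 5.52 CPM in control, and the 1 of 7 erythroid markers had 0.323 to 9.36 CPM in BDL and 6.31 to 10.01 CPM in control. Defining markers such as Krt19, Epcam, Adgre1 and Col1a1 had no single-gene peak. Within the groups, libraries correlated at 0.85 to 0.87 in BDL and 0.77 to 0.81 in control (Pearson, log2 CPM over tested peaks, which share the peak set), against 0.61 to 0.70 between groups.

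The members lower in BDL included secreted proteins of hepatocytes. Crp had 18439 ± 882 CPM in BDL and 49713 ± 788 CPM in control (SD, n = 3 each), a log2 change of -1.43 (SE 0.13, adjusted p = 0.00125). Apoa2, an apolipoprotein of high-density lipoprotein, had 10137, 17249 and 12835 reads in BDL libraries, against 21344, 17799 and 25165 in control libraries. After scaling this was 434 ± 20.4 CPM in BDL and 1348 ± 248 CPM in control (SD, n = 3 each), and it fell by 1.64 on the log2 scale (SE 0.17, adjusted p = 0.00237). Both peaks had every BDL library below every control library. Manf, a secreted protein of the endoplasmic reticulum stress response, had 305 ± 53.2 CPM in BDL and 1001 ± 137 CPM in control (log2 change -1.72). Ttr, the thyroid hormone carrier transthyretin, had 1953 ± 805 CPM in BDL and 4935 ± 1303 CPM in control (log2 change -1.34, SE 0.31, adjusted p = 0.0382).

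The major urinary proteins, lipocalins that the mouse liver secretes as pheromone carriers, had the largest falls among the called members with reads in both groups. The Mup3 peak held 41, 148 and 9 reads in BDL libraries, against 12423, 14221 and 5518 in control libraries. Its log2 change was -8.44 (SE 0.92, adjusted p = 0.00263). Mup21 held 0, 0 and 3 reads in BDL libraries, against 467, 656 and 198 in control libraries, so that the ratio of control over BDL was 853 with an exact Poisson interval of 291 to 4141 for counting error. Mup10 had no reads in BDL libraries, against 169, 256 and 78 in control libraries. Set against a floor of 3 reads in each empty library, it was at least 105-fold lower in BDL. All 3 peaks lie on the starts printed above.

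Genes of fatty acid handling and glucuronidation were also among the lower members. Slc27a2 held 16472, 25934 and 16269 reads in BDL libraries, against 30447, 34323 and 30505 in control libraries, and had 638 ± 108 CPM in BDL and 2001 ± 256 CPM in control (log2 change -1.65, SE 0.18, adjusted p = 0.00275). Fabp1, the liver fatty acid binding protein, held 0, 1 and 67 reads in BDL libraries, against 1099, 1103 and 661 in control libraries (log2 change -6.37, SE 1.56, adjusted p = 0.0443). In Fabp1 nearly all BDL reads came from 1 library. Slc25a20, the carnitine and acylcarnitine carrier of the mitochondrial membrane, had no reads in BDL libraries, against 238, 84 and 117 in control libraries, and was at least 94.5-fold lower in BDL. Ugt2b1, an enzyme that conjugates glucuronic acid to steroids and drugs, had 2460, 2548 and 1675 reads in BDL libraries, against 17610, 27149 and 19423 in control libraries (log2 change -4.14, SE 0.32, adjusted p = 0.000643). Its relatives Ugt2b36 (2 peaks), Ugt2b5 and Ugt2b34 were lower too, with log2 changes between -1.43 and -1.02. Ugt2b members thus made up 5 of the 24 lower peaks.

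The other lower members had mixed roles. Cdca3, a cell cycle protein, had no reads in BDL libraries, against 142, 64 and 421 in control libraries, and was at least 124-fold lower. Mcph1, which acts in chromosome condensation, and Lsm4, a subunit of the ring that binds U6 RNA, were at least 59.1-fold and 51.6-fold lower by the same floor. Both passed in none of the fits that left a library out. Mn1, a transcriptional coregulator, had 57, 333 and 477 reads in BDL libraries, against 731, 1405 and 569 in control libraries (log2 change -2.69). Ehd3, Plcxd2, Irs1, Inmt and Gucd1 completed the list, with log2 changes between -2.66 and -0.66.

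The members higher in BDL included matrix genes. Thbs1, which encodes thrombospondin 1, a matricellular protein that can activate latent TGF-beta, held 787, 1240 and 1996 reads in BDL libraries, against 2, 0 and 2 in control libraries. The fitted log2 change was 8.93 (SE 0.90, adjusted p = 0.00191). Loxl1, which crosslinks elastin, held 584, 1157 and 1873 reads in BDL libraries, against 153, 70 and 177 in control libraries (log2 change 2.19, SE 0.56, adjusted p = 0.0498). Both genes had every BDL library above every control library, and Loxl1 passed in none of the fits that left a library out. Ccdc80, a secreted matrix protein, had 136 ± 47.2 CPM in BDL and 34.4 ± 13.8 CPM in control (log2 change 1.98).

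Among them were the survival genes Bcl2 and Bcl2l1, whose products hold back the mitochondrial pathway of cell death. Bcl2 held 147, 360 and 487 reads in BDL libraries and none in control libraries, at least 55.2-fold higher. Bcl2l1 held 2600, 6612 and 4080 reads in BDL libraries, against 1168, 796 and 776 in control libraries (log2 change 1.23, SE 0.31, adjusted p = 0.0485). Bcl2l1 was thus measured well in both groups, whereas Bcl2 had only a bound.

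Transcription factors were also among the higher members. Foxj1, the regulator of motile cilium genes, held 2546, 4335 and 7751 reads in BDL libraries, against 45, 54 and 207 in control libraries (log2 change 4.69, SE 0.65, adjusted p = 0.0063). Meis2, a homeobox factor, held 108, 174 and 278 reads in BDL libraries and none in control libraries, at least 32.0-fold higher. Atoh8, a basic helix-loop-helix factor, had 581 ± 140 CPM in BDL and 218 ± 67.1 CPM in control (log2 change 1.42). Patz1, a zinc finger factor, had a log2 change of 1.67, and Maml2, a coactivator of Notch, one of 2.35.

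Receptors, small GTPases and enzymes made up the rest. Cx3cr1, the fractalkine receptor of monocytes and macrophages, held 271, 880 and 918 reads in BDL libraries, against 0, 8 and 2 in control libraries (log2 change 6.69, SE 1.31, adjusted p = 0.023). Plscr2, a phospholipid scramblase, held 237, 307 and 196 reads in BDL libraries, against 0, 0 and 2 in control libraries, a ratio of 191 with a counting interval of 52.7 to 1580. Arl4c, a small GTPase of the ARF group, had 2 called peaks with log2 changes of 1.79 and 1.81 and a neighbour of 2.45 that did not pass (adjusted p = 0.0914). Its relative Arl4a had 175 ± 34.8 CPM in BDL and 91.2 ± 13.8 CPM in control (log2 change 0.94). Itpkc, an inositol trisphosphate kinase, Ext1, a heparan sulphate polymerase, and Fuca1, a lysosomal fucosidase, had log2 changes of 2.03, 1.11 and 0.95. Fam110c, Ankrd50, Rcn2 and Fem1c completed the list with 2.65, 0.95, 1.55 and 1.47.

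**Figure D3:**
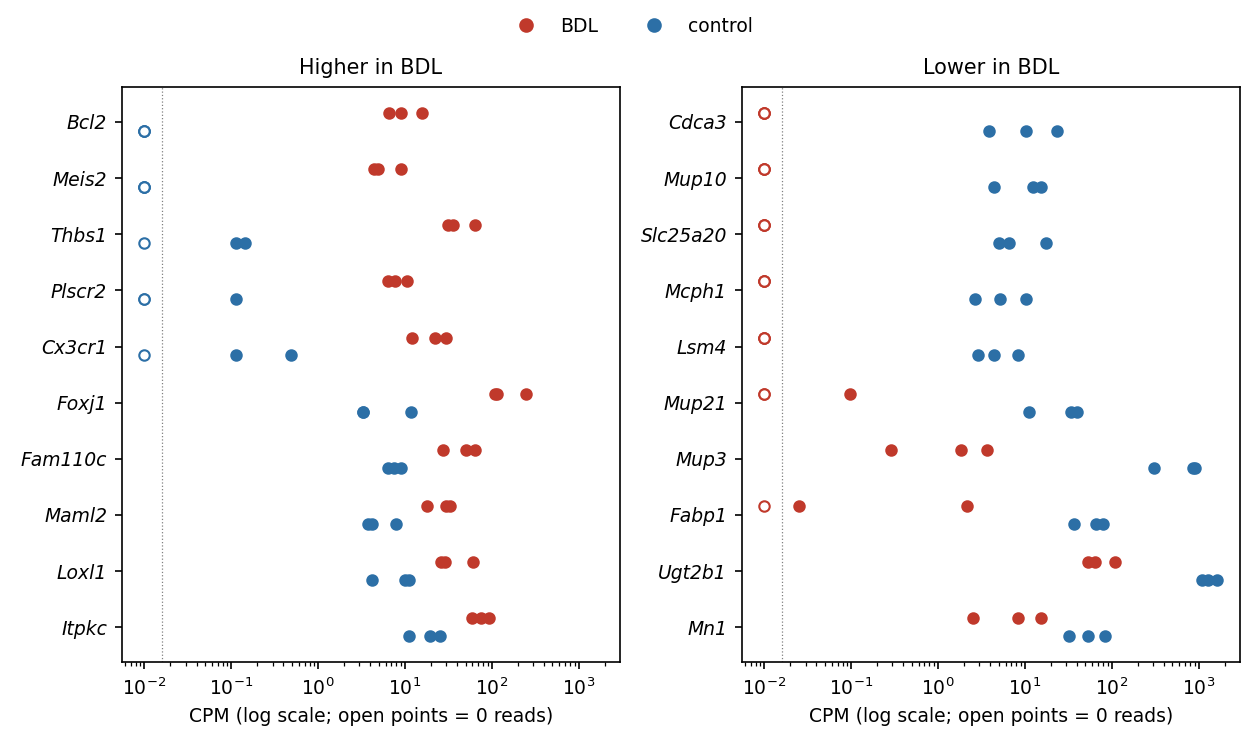
CPM in each library (log axis) of the 10 called members with the highest and the 10 with the lowest log2 change of BDL over control. Open points left of the dotted line are libraries with 0 reads, and in each gene BDL and control points do not overlap.

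Direction varied with distance from the listed start. The share called was 7.07% within 250 bases, 8.59% from 250 to 1000, 9.62% from 1000 to 5000 and 6.38% beyond. It was 9.16% among all 7083 tested peaks (4.62% higher and 4.55% lower). Among the 198 tested members within 250 bases, 2 were higher and 12 lower, and the median log2 change was -0.43. Between 250 and 1000 bases it was 7 higher and 7 lower of 163 (median -0.09), between 1000 and 5000 bases 12 higher and 3 lower of 156 (median 0.00), and beyond 5000 bases 1 higher and 2 lower of 47 (median 0.24). The peaks nearest the start were also the narrowest, with 44.7% of them at 75 bases or less against 15.2% between 1000 and 5000 bases, and their levels were the lowest, with a median of 61.7 CPM per kb in BDL against 137 in that class. The part of width and level in the direction was not tested. The 12 lower members within 250 bases included Mup3, Mup10, Mup21 and Ugt2b34, whose single values are uncertain. With narrow peaks left out of the fit, the members within 250 bases had 2 higher, 10 lower and a median of -0.40. With library totals alone they had 3 higher, 9 lower and a median of -0.10, against 608 higher and 173 lower over all 7083 tested peaks. With 1 library left out they had 0 to 3 higher and 4 to 7 lower, and the median was -0.70 without BDL replicate 1 and -0.28 without control replicate 1.

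**Figure D4:**
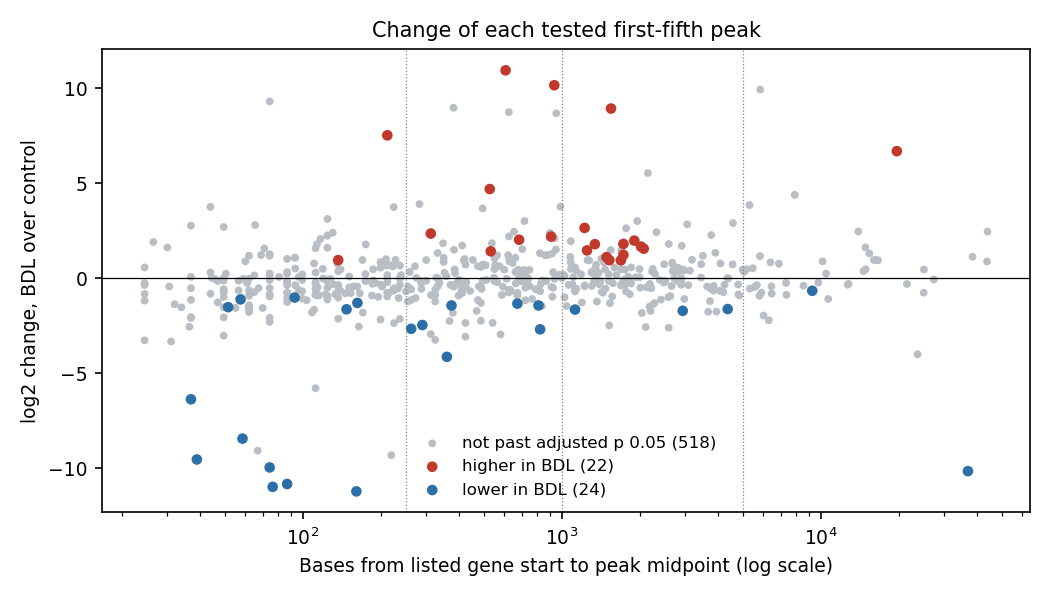
Log2 change of BDL over control for each of the 564 tested members, against the distance from the listed gene start to the peak midpoint (log axis, dotted lines at 250, 1000 and 5000 bases). Where a group had no reads the fitted value depends on the prior count. Blue points, lower in BDL, are mostly left of 1000 bases, and most red points, higher in BDL, lie between 250 and 5000 bases.

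Of the 91 tested members that covered a RefSeq start, 1 was higher (Fuca1) and 7 were lower (Apoa2, Inmt, Mup3, Mup10, Mup21, Slc25a20 and Ugt2b34). Among all 7083 tested peaks, 4.62% were higher and 4.55% lower. The values of single Mup and Ugt2b genes are uncertain, as stated above. The median log2 change of the 91 members was -0.55, and 67 of them were negative. With library totals alone the median was -0.21, and relative to all peaks it was -0.60 with TMM and -0.59 with library totals. With 1 library left out 0 to 2 were higher and 3 to 5 lower, and the median was -0.34 without BDL replicate 3. Of the 5 members with GGACT in the printed windows, 4 were tested and none passed. Tat, the tyrosine aminotransferase of the liver, had 46.5 ± 26.2 CPM in BDL and 46.0 ± 24.4 CPM in control (SD, n = 3 each, log2 change 0.02). Emc7, a subunit of a membrane protein insertase, had 16.7 ± 8.61 CPM in BDL and 21.4 ± 7.67 CPM in control (log2 change -0.36). Adk, adenosine kinase, and Tsc22d1, a leucine zipper protein, had log2 changes of 1.53 (SE 1.63) and 2.39 (SE 1.71). The small second Crp peak at its start had reads in 1 BDL library (146) and in 1 control library (86) only and was not tested.

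Genes of the mitochondrial respiratory chain and of the ribosome were common among the members. The deposited annotation placed 19 of the 534 member genes (3.56%) in oxidative phosphorylation, against 7 of the 3900 other genes with a peak of their own (0.179%). For the mitochondrial inner membrane it was 39 (7.30%) against 62 (1.59%), and for the ribosome pathway 10 (1.87%) against 7 (0.179%). By symbol, 21 of the 29 genes for subunits or assembly factors of the respiratory chain and ATP synthase with any peak had a first-fifth peak, as did 8 of 10 cytosolic ribosomal protein genes, against 534 of 4434 genes (12.0%) in all. These families were picked after the members' names had been seen, and they were not tested for enrichment. The respiratory chain members lay a median of 112.5 bases from the start.

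None of the 20 tested respiratory chain members passed, 16 had a negative log2 change, and the median was -0.61. With library totals alone the median was -0.28, with 14 negative. It was -0.99 without BDL replicate 1, with 19 negative, and -0.34 without control replicate 1, with 16 negative. Atp5g1, a subunit of the ATP synthase ring, held 2337, 2144 and 1860 reads in BDL libraries, against 1464, 2286 and 1618 in control libraries (log2 change -0.62, SE 0.32, adjusted p = 0.288). Ndufa4, a respiratory chain subunit whose transcribed part opens with GGAC, held 701, 512 and 230 reads in BDL libraries, against 326, 430 and 214 in control libraries (log2 change -0.25, SE 0.63, adjusted p = 0.85). The raw counts are similar because BDL libraries were deeper. None of the 9 tested ribosomal protein members passed either, 3 had a negative log2 change, and the median was 0.76. It was 0.18 over the 4 left without narrow peaks, 2 of them negative, and 0.40 without BDL replicate 1, with 4 of 9 negative. Rps20 had 30.9 ± 19.2 CPM in BDL and 14.5 ± 2.21 CPM in control (SD, n = 3 each, log2 change 1.08).

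A gene's first-fifth peak was often its weaker one per kb of peak width. In 188 genes with both a member and another peak, the member level per kb was below that of the other peaks in all 6 libraries in 101 genes, above it in all 6 in 33, and mixed in 54. The median share of a gene's peak reads that fell in its members was 21.9, 21.5 and 23.3% in BDL libraries and 21.5, 20.4 and 18.9% in control libraries. Ankrd50, which acts in endosomal recycling, was at the other end, with 98.6 ± 0.261% of its reads in the member in BDL and 97.2 ± 0.479% in control (SD, n = 3 each). Nfe2l1, a stress-responsive transcription factor, had 2707 CPM per kb in its member in BDL against 1228 in its other peaks, and 3819 against 1507 in control. Levels per kb depend on peak width. The Slc27a2 member held a mean of 67.7% of the gene's peak reads in BDL and 68.2% in control. It was still below the other peak per kb in all 6 libraries.

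**Figure D5:**
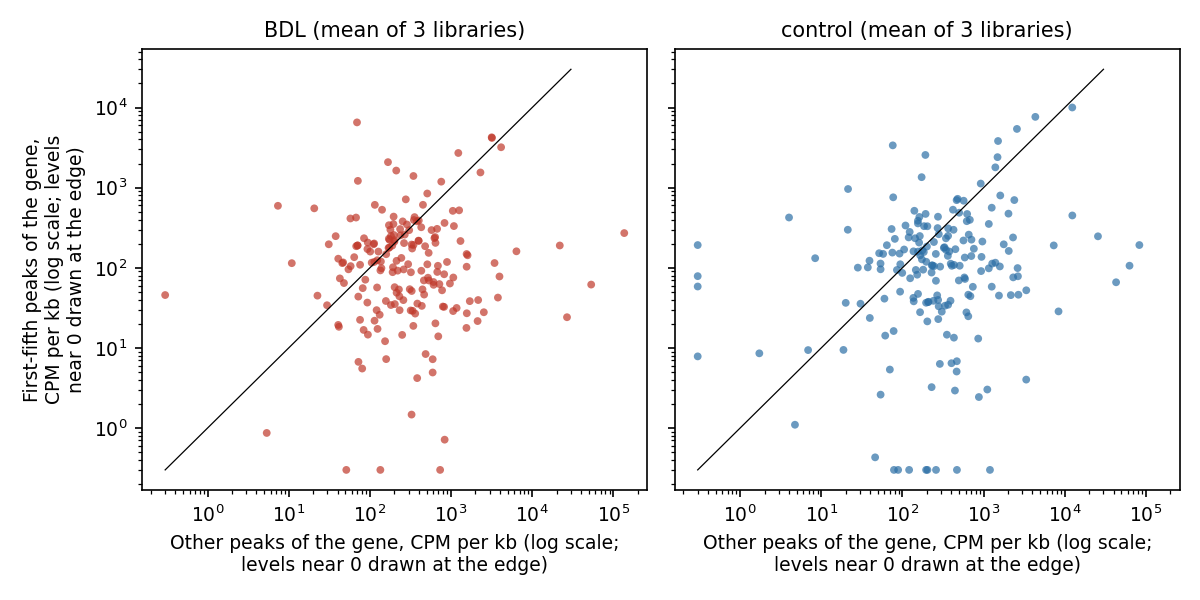
CPM per kb of the first-fifth peaks of a gene against that of its other peaks, for 188 genes with both, as the mean of 3 libraries in BDL (left) and control (right) on log axes. Points below the diagonal are genes whose first-fifth peaks were the weaker ones per kb of peak width.

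Whether a member changed by another amount than the rest of its gene was tested with edgeR's diffSpliceDGE over 3122 peaks. None of the 274 members in 210 genes passed, against 0.224% of all peaks tested (7 peaks), and 7 members (2.55%) had an unadjusted p under 0.05, against 2.59% of all. These were Meis2, Wdr24, Arglu1, Thbs1, Abr, 1 Sox4 peak and Marveld1. Meis2 came nearest (adjusted p = 0.0506), since its other peak held 533, 1426 and 1805 reads in BDL libraries, against 394, 503 and 484 in control libraries. In Thbs1 the other peak held 1550, 2187 and 2602 reads in BDL libraries, against 0, 177 and 240 in control libraries. Without control replicate 1, the library with no reads in the other Thbs1 peak, the Thbs1 member differed from that peak (adjusted p = 0.00734).

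Of 13 genes with a called member and another peak, 6 had another peak called in the same direction and none had one called in the opposite direction. The 6 were Atoh8 and Foxj1, higher in BDL, and Ehd3, Irs1, Slc27a2 and Ugt2b1, lower in BDL. In Slc27a2 the other peak had 310 ± 94.1 CPM in BDL and 928 ± 68.3 CPM in control (SD, n = 3 each, log2 change -1.58), beside -1.65 for the member. A further 20 genes had a called peak elsewhere while their member did not pass. Among them Nudt7, a peroxisomal nudix hydrolase of coenzyme A, had 4 other peaks that were all lower, while its member held 70, 0 and 0 reads in BDL libraries, against 516, 1523 and 695 in control libraries (log2 change -5.79, SE 1.82, adjusted p = 0.0901). Its member therefore had the same sign as the called peaks.

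Pathway lists had few members, too few to set their calls against the 9.16% called among all 7083 tested peaks. Insulin and growth hormone signalling had 9 tested members, 1 of them lower and none higher. That was an Irs1 peak, from the gene of the main docking protein of the insulin receptor, with 413, 475 and 541 reads in BDL libraries, against 571, 1025 and 784 in control libraries (log2 change -1.62, SE 0.36, adjusted p = 0.0335). The other Irs1 members had log2 changes of -1.20 and -0.84 and did not pass, nor did Insr, the receptor itself. Irs2 and Pik3r1 had 2 first-fifth peaks each, and none of them passed. Those with the smaller p had log2 changes of 0.44 for Irs2 and -1.09 for Pik3r1. Over its 2 peaks Irs2 had 610 CPM per kb in BDL and 469 in control, and Pik3r1 had 103 and 113. In TGF-beta and BMP signalling, Thbs1 was the 1 call among 7 tested members. The ligand Tgfb1 held 1079, 2571 and 2366 reads in BDL libraries, against 636, 285 and 730 in control libraries (log2 change 0.86, adjusted p = 0.26), and the inhibitors Smad6 and Skil had log2 changes of 1.02 and 0.48. In lipid and bile acid metabolism, Slc25a20 was the 1 call among 6. Cyp27a1, a bile acid synthesis enzyme, had a log2 change of -2.06 and Elovl6, a fatty acid elongase, one of -0.88.

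The remaining lists held no call apart from the Slc carriers. Of 11 tested Slc members, Slc27a2 and Slc25a20 were lower, while Slc15a3 (1.71) and Slc27a3 (2.40) did not pass. Immediate early genes had 5 tested members without a call, with Klf6 at 19.2 ± 6.74 CPM in BDL and 1.42 ± 1.38 CPM in control (log2 change 3.75, adjusted p = 0.142). Klf2 and Zfp36l1 had 0.59 and 0.02, and the Klf9 peak with the smaller p had -0.88. The 2 first-fifth peaks of Klf9 together had 242 CPM per kb in BDL and 259 in control. Hepatocyte transcription factors had 4 without a call, among them Gata6 (3.01), Prox1 (-0.64) and Nr2f6 (-0.20). Wnt, Notch and Hippo genes had 6, among them 2 Sox4 peaks, Fzd8 (-0.92), Axin1 (0.73) and Lrp6 (-0.34, from an entry 24797 bases wide). The first Sox4 peak held 23, 111 and 129 reads in BDL libraries and none in control libraries. The other held 401, 1108 and 553 reads in BDL libraries, against 0, 0 and 75 in control libraries (log2 change 3.90). Chromatin modifiers had 4, Setd2 (0.96), Kat6a (0.40), Nsd1 (-1.75) and Arid1a (0.74). The 10 tested Zfp members included Zfp579 (2.42), Zfp142 (0.37), Zfp706 (0.68) and Zfp41 (-0.16). The 2 cytochrome P450 members were Cyp27a1 and Cyp3a11 (0.06), the 1 feedback inhibitor was Socs6 (0.46), and the 1 m6A writer subunit was Rbm15 (-2.96, SE 2.10). No collagen or other matrix gene of the matrix list had a first-fifth peak.

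Genes with 3 or more members showed how levels vary within a short stretch. Dclre1a, a DNA crosslink repair nuclease, had 4 first-fifth peaks, with 50.6, 2492, 430 and 647 CPM per kb in BDL, against 38.3, 1969, 416 and 562 CPM per kb in control. The order of the 4 was the same in both groups. Hexim1, an inhibitor of transcription elongation, had 110, 173 and 729 CPM per kb in BDL and 209, 382 and 751 in control. The others were Adcy9, Arl4c, Atoh8, Cnnm3, Irs1, Snx33 and Znhit6. At the edge of the rule, Mphosph8 lay just inside 0.2, with 89, 225 and 182 reads in BDL libraries and none in control libraries, and Klhl9 just outside, with 517, 972 and 613 reads in BDL libraries, against 432, 476 and 629 in control libraries.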

How the data were processed

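Per the labels' protocols, total liver RNA was fragmented, enriched with an m6A antibody and reverse transcribed with random primers. The submitters' processing notes name bcl2fastq 2.17, fastp, Bowtie2 2.2.8 and HISAT2. Neither the peak caller and read counter nor the use of strand or the genome build is stated there. The deposited values are whole-number read counts per merged peak, and a score, headed rpm per the file headers, that the authors made by dividing each count by the library's total over distinct peaks. The score was used only to check the counts. Input libraries were not analysed here.

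The 8649 lines were reduced to 7460 distinct peaks, and 986 peaks assigned to several genes entered the fits but not the members. BDL was compared with control in R 4.3.3 with edgeR 4.0.16 (filterByExpr, TMM, robust quasi-likelihood fit, Benjamini-Hochberg adjustment over all tested peaks), and each member with its gene's other peaks with diffSpliceDGE. Each SE was taken as the absolute log2 change over the root of its F statistic. An empty group was set to a floor of 3 reads per library. Ratios against 1 to 3 reads carry an exact 95% interval, and both cover counting error only. The labels name no molecular identifiers. Scripts were tested on simulated data.

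The planned permutation test of the read share is not reported, because it would test a score over chosen members. Members, gene lists and tests were chosen with earlier results of these data known. Named members are the 10 highest and 10 lowest called changes, the highest levels (10 in control, 5 in BDL), up to 4 of each list by p, genes with 3 or more members and the peaks nearest 0.2. The rest of the called members, the families, the start windows and the genes compared with their other peaks were named after their values were seen. The alternatives were other scalings (library totals, DESeq2 size factors), DESeq2 1.42.0, other count filters, narrow peaks left out, another fraction or peak edge, 1 library left out and a replicate block. Same-numbered BDL and control libraries did not deviate together (correlations 0.029, 0.0099 and 0.0091), so the numbers were not taken as pairs.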

Additional observations from a re-analysis of the deposited data

How the results depend on the processing

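The 22 higher and 24 lower first-fifth peaks stayed within 1.5 times of these counts under DESeq2 size factors, library totals, other count filters, narrow peaks left out, a minimum log2 change of 1, a fraction of 0.1 or 0.3 and the peak's 5′ edge. DESeq2 itself gave 37 higher and 39 lower, and it called 16.5% of all 7083 tested peaks (640 higher and 529 lower). With 1 library left out the counts ranged from 4 to 22 higher and from 9 to 16 lower, with fewer samples in each such fit. Calls over all peaks ranged from 155 to 611 in those fits, against 649 in the main fit. The replicate block gave 11 higher and 12 lower, with 287 calls over all peaks, and the numbers do not pair the libraries. Members apart from their gene's other peaks numbered 2 with at least 50 reads required (Meis2 and Wdr24), 1 without narrow peaks (Wdr24) and 0 to 1 with a library left out (Nudt7, Thbs1 or Smg8), against 0 otherwise, also under the block. The read share of members differed by -3.27 percentage points (BDL minus control), -2.45 with all distinct peaks as denominator and -3.49 to -2.99 with a library left out. In settings added after seeing the data it was -0.42 without the main Crp peak and -0.13 within the first 20% of the RefSeq span. The cause of these moves was not tested, apart from the weight of Crp. Of 83 single members followed, 15 values of 10 uncalled peaks changed sign. With library totals alone these were Zfp41 (0.16), Lrp6 (0.0078) and Nr2f6 (0.12). With a library left out, the log2 change ranged from -2.61 to 0.024 for Cyp27a1, from -0.72 to 0.38 for G6pc, from -0.25 to 0.26 for Zfp36l1, from -0.47 to 0.12 for Zfp41, from -0.26 to 0.88 for Socs6, from -0.17 to 0.31 for Cyp3a11, from -0.047 to 0.71 for Irs2 and from -0.28 to 0.94 for Klf2. Depth limits the low members: the median member had 284, 435 and 327 reads in BDL libraries and 171, 215 and 184 in control libraries.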

Other observations

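Several plasma protein genes had a peak at the very start of the gene with overlapping CPM in BDL and control libraries. These members were picked after their values were seen. Alb, serum albumin, had 98.6 ± 44.7 CPM in BDL and 118 ± 49.4 CPM in control (SD, n = 3 each) in a peak of 50 bases (log2 change -0.26, SE 0.42, adjusted p = 0.762). Gc, the vitamin D binding protein, had 116 ± 29.1 CPM in BDL and 117 ± 23.9 CPM in control (log2 change -0.02, SE 0.26, adjusted p = 0.978). Orm1, an acute-phase protein, had 29.6 ± 15.8 CPM in BDL and 37.9 ± 20.6 CPM in control, and Fgb, the fibrinogen beta chain, held 705, 364 and 329 reads in BDL libraries, against 538, 221 and 81 in control libraries. None of these passed, which does not show that they did not differ.

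The first-fifth peaks of Mpeg1, Lyz2 and Lcn2, also picked after their values were seen, had more reads in BDL but did not pass the threshold. Mpeg1, perforin-2 of macrophages, held 16525, 34226 and 27950 reads in BDL libraries, against 3235, 4634 and 9945 in control libraries (log2 change 1.22, SE 0.32, adjusted p = 0.0508). Lyz2, the lysozyme of myeloid cells, held 515, 1930 and 1052 reads in BDL libraries, against 1, 181 and 73 in control libraries (log2 change 2.80, SE 1.18, adjusted p = 0.198). Lcn2, an iron-siderophore binding protein of injured tissue, held 218, 557 and 249 reads in BDL libraries, against 0, 11 and 32 in control libraries (log2 change 3.67, SE 1.60, adjusted p = 0.213). The BDL and control libraries did not overlap in any of these 3 peaks. Among all 7083 tested peaks, 20.6% had BDL above control without overlap, so this does not set the 3 peaks apart.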
